A study of Mus musculus with 8 samples.

Results

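The genes described here are 10 members of the p53 pathway and of the BCL2 family of apoptosis regulators: Trp53, Trp73, Mdm2, Perp, Bax, Bbc3, Pmaip1, Bcl2, Bcl2l1 and Mcl1. They were taken by symbol from the deposited count table, which held 55536 genes, and each of the 10 symbols matched 1 row. RNA came from MIN6, a mouse pancreatic β-cell line whose genotype is labelled WT. Control cells were given the pcDNA 3 empty vector and the rest pGloMyc-Klf4, which carries the zinc-finger transcription factor Klf4, in both cases for 48 h with Lipofectamine 3000, a lipid transfection reagent. Each group held 4 biological replicates, of which replicates 1 and 2 were labelled batch 1 and replicates 3 and 4 batch 2. The extraction text in the labels speaks of islets, although every sample is named MIN6. The plasmids have different names, so a different backbone and Klf4 changed together, and endogenous and plasmid-derived Klf4 reads were counted in 1 gene.

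The p53 protein, encoded by Trp53, is a transcription factor that is stabilised by DNA damage and other stresses and then switches on genes for cell cycle arrest, DNA repair and cell death. Mdm2 is both a p53 target and the ubiquitin ligase that removes p53, so the pair forms a feedback loop. Members of the BCL2 family decide whether the outer mitochondrial membrane is opened: Bax and its relatives form the pore, Bcl2, Bcl2l1 (BCL-XL) and Mcl1 restrain them, and BH3-only proteins such as Bbc3 (PUMA) and Pmaip1 (NOXA) bind the restrainers and release the pore-formers. MIN6 cells arose from insulinomas of mice that carried the SV40 large T antigen, a viral protein known to bind p53, which limits the line as a model of p53 responses. Klf4 binds GC-rich and CACCC-type elements and has been described both as a repressor of Trp53 transcription and as an activator of the cell cycle inhibitor gene Cdkn1a in other cells.

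The upstream sequences of 4 members that changed are shown because Klf4 elements are read in such windows. RefSeq's promoter table (GRCm38.p6) gave the windows of 8 of the 10 members used here, without Perp and Pmaip1. Each line gives the 250 bases before the RefSeq start site, 5′ to 3′ on the gene's strand, and no base of them lies in an annotated exon of its gene. Capitals mark the letters CACCC or CGCCC on either strand (GGGTG or GGGCG in the printed strand), which may overlap.
Trp53, chr11:69580109-69580358, plus strand: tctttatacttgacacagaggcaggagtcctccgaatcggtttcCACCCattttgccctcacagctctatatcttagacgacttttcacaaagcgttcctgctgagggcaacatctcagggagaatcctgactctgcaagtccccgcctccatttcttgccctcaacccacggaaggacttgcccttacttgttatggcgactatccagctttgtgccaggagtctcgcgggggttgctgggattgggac
Mdm2, chr10:117710759-117711008, minus strand: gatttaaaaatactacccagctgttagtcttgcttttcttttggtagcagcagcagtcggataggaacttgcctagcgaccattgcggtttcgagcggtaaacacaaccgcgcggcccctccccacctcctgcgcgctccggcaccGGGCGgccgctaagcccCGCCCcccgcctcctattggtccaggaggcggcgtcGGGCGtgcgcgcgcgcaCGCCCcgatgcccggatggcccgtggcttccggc
Bbc3, chr7:16309333-16309582, plus strand, the first of 3 listed starts, inside the annotated gene: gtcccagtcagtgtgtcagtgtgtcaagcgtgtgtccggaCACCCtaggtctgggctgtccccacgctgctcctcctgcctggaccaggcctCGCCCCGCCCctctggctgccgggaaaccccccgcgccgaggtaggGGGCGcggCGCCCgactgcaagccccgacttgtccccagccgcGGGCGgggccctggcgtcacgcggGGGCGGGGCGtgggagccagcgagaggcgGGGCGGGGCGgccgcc
Bcl2, chr1:106714291-106714540, minus strand: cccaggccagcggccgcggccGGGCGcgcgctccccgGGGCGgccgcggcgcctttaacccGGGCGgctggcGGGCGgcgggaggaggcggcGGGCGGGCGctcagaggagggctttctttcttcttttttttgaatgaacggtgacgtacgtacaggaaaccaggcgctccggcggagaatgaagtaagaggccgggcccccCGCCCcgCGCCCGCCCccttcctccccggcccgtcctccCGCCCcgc
The Trp53 window held 1 CACCC and 0 CGCCC matches, the Mdm2 window 0 and 4, the Bbc3 window 1 and 9, and the Bcl2 window 0 and 10. Of all 32851 windows of this length in the table, 52.0% held CACCC and 43.7% held CGCCC, 69.4% held at least 1 match of either, and 0.959% held 10 or more matches in all. The printed Bbc3 and Bcl2 windows each had 10 matches in all, with a GC content of 76.4% and 74.8%. At the other listed Bbc3 starts the windows held 3 CACCC and 7 CGCCC matches, and 3 and 10. Whether the matches bear on the direction of change was not tested. A p53 half-site, searched by its consensus, was found once each in the Trp53, Mdm2 and Bax windows and in none of the printed Bbc3 and Bcl2 windows, against 7.13% of all windows. These are letter matches and not measured binding sites.

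Klf4 itself, which checks the labels, averaged 40.1 ± 3.11 CPM in the controls and 5037 ± 566.7 CPM after transfection of its plasmid (SD, n = 4). CPM here are counts scaled to the library total with TMM factors, a correction for library composition. Total counts ranged from 47017647 to 49504167 in control and from 45417853 to 52731176 in Klf4-transfected libraries. All 8 β-cell markers checked (Ins1, Ins2, Iapp, Pdx1, Mafa, Nkx6-1, Slc2a2, G6pc2) were expressed in every library, with a summed level of 25105 to 31848 CPM in control and 23450 to 32125 CPM in Klf4-transfected libraries. Of these 8, 4 were called lower and none higher, against 15.5% lower and 21.1% higher among all genes tested. The 4 falls were small, with log2 fold changes of -0.07 (Iapp), -0.12 (Pdx1), -0.13 (G6pc2) and -0.18 (Mafa). Fitted within batch 1 alone, these genes were not called, and within batch 2 alone they were called lower. Of the 4, only Mafa passed edgeR's interaction test of the difference between batches (-0.05 in batch 1 and -0.30 in batch 2, adjusted p 0.00817). Pdx1, G6pc2 and Iapp did not (adjusted p 0.12, 0.103 and 0.992), and Iapp had -0.06 and -0.07 in batches 1 and 2. Summed markers of some other cell types moved with the plasmid. The 3 duct markers summed to between 2.34 and 3.55 CPM in control and between 6.50 and 7.18 CPM with Klf4 (2 called higher). For the 5 fibroblast markers the ranges were 2.65 to 3.86 and 5.80 to 7.21 CPM (2 higher), and for the 3 endothelial markers 3.82 to 4.15 and 4.49 to 4.95 CPM (1 higher). The ranges overlapped for the 4 leukocyte markers (5.93 to 6.55 and 5.97 to 7.39 CPM), the 4 acinar markers (1.35 to 3.91 and 1.62 to 3.07 CPM) and the 4 markers of delta, PP and epsilon cells (0.331 to 0.722 and 0.483 to 0.758 CPM), none of which was called. The 5 alpha-cell markers, which islet endocrine lines can share, summed to 232.1 to 265.2 and 200.8 to 247.3 CPM (2 higher, 1 lower). Genes called higher included Krt19 (7 to 16 counts in control and 114 to 212 with Klf4) of the duct list, Pdgfra (0 to 3 and 36 to 46) and Col1a1 (69 to 119 and 179 to 229) of the fibroblast list, and Cdh5 (0 in every control and 14 to 28) of the endothelial list. Of the same lists, Kdr (endothelium), Col3a1 (fibroblasts) and, among leukocytes, Adgre1 had at most 3 counts in any library. The part of other cells in the results was not tested, and in bulk RNA fewer expressing cells and less RNA per cell cannot be told apart.

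Of the 10 genes, 9 passed the filter on low counts and 7 of these changed (edgeR's quasi-likelihood test with a batch term, adjusted p under 0.05), 3 higher (Perp, Trp73, Bbc3) and 4 lower (Trp53, Mdm2, Bcl2, Bax) in Klf4-transfected cells. Among all 18266 genes tested 36.6% changed, 21.1% higher and 15.5% lower. Bcl2l1 and Mcl1 did not pass the threshold, and Pmaip1 was too low to test. Perp stood out in size with a log2 fold change of 2.17, whereas the others that were tested lay between -0.22 and 0.58. The median log2 fold change of the 9 tested genes was 0.03, against -0.01 over all genes tested. Libraries of the groups did not overlap for 5 of the 9 (Perp, Trp73 and Bbc3 above, Mdm2 and Bcl2 below control), against 26.1% of all genes tested, 17.2% above and 8.95% below.

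**Figure D1:**
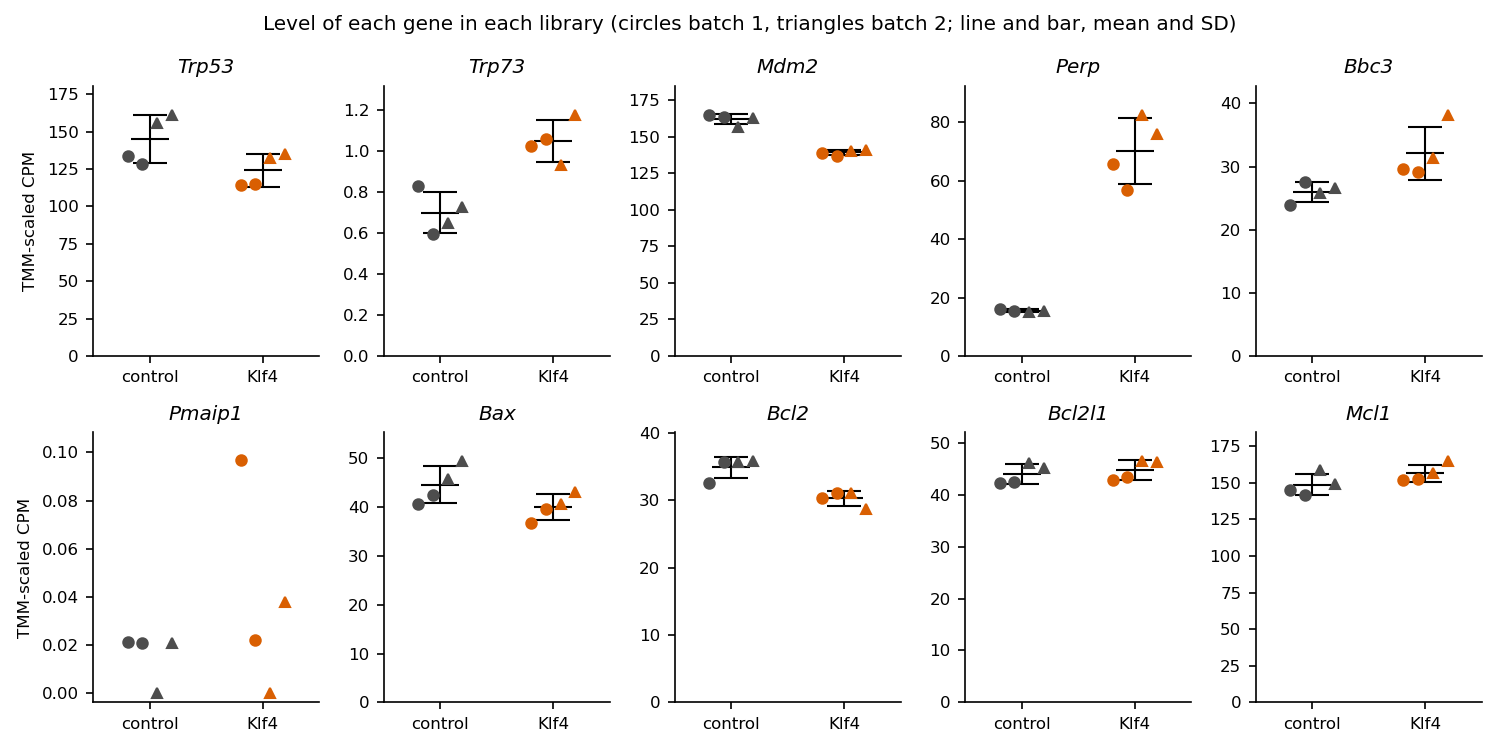
Level of each of the 10 genes in each library (vertical axes, TMM-scaled CPM), with control libraries in grey and Klf4-transfected libraries in orange, circles for batch 1 and triangles for batch 2. Horizontal lines and bars give the mean and SD of 4 libraries and are left out for Pmaip1, which had at most 5 counts; Perp separates from about 15 to above 56 CPM, and Trp53 is offset between batches.

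Trp53 (ENSMUSG00000059552, chromosome 11, 69580359 to 69591873, plus strand, GRCm38) was abundant in both groups. Control replicates 1 to 4 had 133.9, 128.3, 155.5 and 161.1 CPM, and Klf4-transfected replicates 1 to 4 had 114.3, 114.6, 132.0 and 135.1 CPM. The groups overlapped when pooled, and both were higher in batch 2, but within each batch every Klf4-transfected library lay below both controls. The mean fell to 85.7% of control (log2 fold change -0.22 with an SE of 0.03, adjusted p 2.05e-06 in edgeR). Within batches 1 and 2 the values were -0.20 and -0.24, and the call was lost when the batch term was left out (adjusted p 0.0706). An annotated processed copy, Trp53-ps, had 7 to 27 counts per library, against 5192 to 7778 for Trp53.

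Mdm2 (ENSMUSG00000020184, chromosome 10, 117688875 to 117710758, minus strand) fell by the same amount and more evenly. It had 164.8, 163.7, 156.8 and 162.6 CPM in control libraries and 138.9, 136.8, 140.3 and 140.8 CPM in Klf4-transfected libraries. Every Klf4-transfected library was below every control library, and the batches were level with each other. The log2 fold change was -0.22 (SE 0.03, edgeR adjusted p 1.49e-06), or -0.25 and -0.18 in batches 1 and 2. Mdm4, the Mdm2 relative that inhibits p53 without degrading it by itself, also fell, with 104.8 ± 2.36 CPM in control and 94.8 ± 3.63 CPM with the Klf4 plasmid (SD, n = 4; log2 fold change -0.14, edgeR adjusted p 0.00113).

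Trp73 (ENSMUSG00000029026, chromosome 4, 154056253 to 154140208, minus strand) encodes p73, a relative of p53 with a full-length and a shorter, inhibitory form that a count per gene does not separate. It was scarce, with 39, 29, 32 and 35 counts in the controls and 53, 48, 49 and 62 after Klf4 transfection. These equal 0.828, 0.595, 0.649 and 0.725 CPM against 1.03, 1.06, 0.931 and 1.18 CPM, with all Klf4-transfected libraries above all controls. The log2 fold change of 0.58 (SE 0.22) passed the threshold narrowly (edgeR adjusted p 0.0403). The call was lost in 8 of 15 alternatives, among them the replicate block (adjusted p 0.0579), the DESeq2 Wald test (0.0745) and the omission of control replicate 2, 3 or 4 or of Klf4-transfected replicate 1, 2 or 4 (0.0636 to 0.129). Trp73 shares 5.1% of its exonic length with the antisense gene Trp73os. The third family member, Trp63, had 0 counts in every library, which allows up to 3 counts in each.

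Around these members, a list of 24 p53 family genes and regulators was examined, of which 23 matched a symbol and 22 were tested. In it 15 genes changed, 4 higher and 11 lower, against 36.6% of all genes tested, 21.1% higher and 15.5% lower. The median log2 fold change was -0.10, against -0.01 over all genes tested. The lowest were Atm, the kinase that signals DNA breaks to p53 (111.1 ± 3.72 to 91.9 ± 5.35 CPM, log2 fold change -0.27), Trp53bp1, a DNA break repair factor (152.3 ± 3.05 to 127.7 ± 3.23 CPM, -0.25), and the deacetylase gene Sirt1 (35.1 ± 2.55 to 29.4 ± 0.872 CPM, -0.25; SD, n = 4). Their edgeR adjusted p-values were 1.05e-06, 1.19e-07 and 0.00016, and 15.0% of the exonic length of Trp53bp1 overlaps Tubgcp4 on the opposite strand. The highest apart from Trp73 were the 3 genes of the ASPP family, whose proteins bind p53. Ppp1r13l (iASPP), described as an inhibitor of p53, rose, with 14.6 ± 0.716 CPM in control and 18.9 ± 1.22 CPM with the Klf4 plasmid (SD, n = 4; log2 fold change 0.38, edgeR adjusted p 1.71e-05). Trp53bp2 (ASPP2) and Ppp1r13b (ASPP1), described as co-activators of p53, had log2 fold changes of 0.18 and 0.10 (edgeR adjusted p 9.47e-05 and 0.0157). The Ppp1r13b call was lost without the batch term (adjusted p 0.0678) and without control replicate 3 or 4 or Klf4-transfected replicate 4 (0.086 to 0.111).

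Perp (ENSMUSG00000019851, chromosome 10, 18845020 to 18857073, plus strand) encodes a tetraspan membrane protein that was found as a p53 target in apoptosis and also belongs to desmosomes, the spot-like junctions of epithelia. Controls held 765, 751, 745 and 743 Perp counts, and the Klf4-transfected libraries held 3402, 2573, 4344 and 4017. In CPM these were 16.2, 15.4, 15.1 and 15.4 against 65.8, 56.8, 82.5 and 76.1. The controls lay close together, and the lowest Klf4-transfected library was far above them. The level rose 4.53-fold on average (log2 fold change 2.17 with an SE of 0.07, adjusted p 3.29e-17 in edgeR), and 5.18% of all genes tested were called with a log2 fold change above 2. The log2 fold change was 1.95 in batch 1 and 2.38 in batch 2, a difference of 0.42 (SE 0.10) with an adjusted p of 0.0245 in edgeR's interaction test. Of the 9 genes, 1 (Perp) passed this test, against 0.766% of all genes tested, 0.679% with a higher and 0.0876% with a lower value in batch 2. Transfected replicates 1 to 4 contained Klf4 at 4870, 4529, 4900 and 5849 CPM. Whether the Klf4 level had a part in the batch difference was not tested.

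Other desmosomal genes were examined beside Perp. Of 13 listed, 12 were tested. Of these, 5 (Dsg1a, Dsg3, Dsc3, Pkp1 and Pkp3) had under 10 counts in every control library and passed the filter through the Klf4-transfected libraries, which makes a rise a condition of their being tested, so no count or median over the 12 is given. The remaining 7, named after their values were seen, were Perp itself, the plaque gene Dsp (log2 fold change 2.18), the cadherin genes Dsc2 (1.72) and Dsg2 (0.24), and Pkp2 (0.55), Jup (0.34) and Pkp4 (0.04). Pkp4 did not pass the threshold (edgeR adjusted p 0.4), and Pkp2 passed it narrowly (0.031). Like Perp, Dsp rose by different amounts in the batches, 1.82 in batch 1 and 2.60 in batch 2 (edgeR interaction test, adjusted p 0.00116). The desmosomal cadherin gene Dsg3 had counts of 0, 0, 1 and 0 in control and 124, 96, 162 and 138 in Klf4-transfected libraries. For Dsc3, another desmosomal cadherin gene, they were 0, 0, 2 and 4 against 411, 299, 441 and 403. The plakophilin genes Pkp1 and Pkp3, for plaque proteins of the desmosome, had 0 to 7 and 0 to 4 counts in control and 418 to 555 and 181 to 293 counts in Klf4-transfected libraries. Perp, with 743 to 765 counts in the controls, was like Dsp (200 to 384), Dsc2 (88 to 160), Dsg2 (772 to 1064), Jup (10590 to 11597), Pkp2 (47 to 92) and Pkp4 (6374 to 6858) in being detected in every control library.

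Bbc3 (ENSMUSG00000002083, chromosome 7, 16308393 to 16318205, plus strand), the BH3-only gene for PUMA, rose modestly. It had 23.9, 27.6, 25.9 and 26.6 CPM in control libraries and 29.7, 29.1, 31.3 and 38.2 CPM in Klf4-transfected libraries. All Klf4-transfected libraries were above all controls, and replicate 4 was the highest. The mean reached 123.4% of control (log2 fold change 0.30 with an SE of 0.06, adjusted p 0.00045 in edgeR), with 0.19 and 0.41 in batches 1 and 2. The difference between batches did not pass the interaction test (edgeR adjusted p 0.481).

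Pmaip1 (ENSMUSG00000024521, chromosome 18, 66458533 to 66465565, plus strand), the BH3-only gene for NOXA, was barely detected. The 4 controls held 1, 1, 0 and 1 counts and the Klf4-transfected libraries 5, 1, 0 and 2, so it was not tested and no fold is given. A difference was not detectable at this depth.

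Further BH3-only genes were described from a list of 8, of which 7 were tested: 4 rose and none fell, against 36.6% of all genes tested, 21.1% higher and 15.5% lower. Their median log2 fold change was 0.14. Besides Bbc3 these were Hrk, a neuronal BH3-only gene (1.36, 1.48, 1.32 and 2.03 CPM in the controls against 2.15, 2.23, 3.84 and 2.80 CPM after Klf4 transfection; log2 fold change 0.82, edgeR adjusted p 0.000354), and Bmf (5.12 ± 0.436 to 6.55 ± 0.849 CPM, SD, n = 4; 0.35, adjusted p 0.00587). Bad, whose protein is inactivated by survival signalling, had 33.5 ± 1.68 CPM in control and 37.0 ± 2.29 CPM with the Klf4 plasmid (SD, n = 4; log2 fold change 0.14, edgeR adjusted p 0.0132). Its call was lost without the batch term (adjusted p 0.0978) and without control replicate 2 or 3 or Klf4-transfected replicate 4 (0.0687 to 0.089), and Bad shares 20.5% of its exonic length with Gpr137. Bcl2l11 (BIM), a broad BH3-only killer, was at 36.8 ± 1.67 and 36.6 ± 2.17 CPM (SD, n = 4; log2 fold change -0.01 with an SE of 0.04, adjusted p 0.891 in edgeR).

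Bax (ENSMUSG00000003873, chromosome 7, 45461697 to 45466898, minus strand), the pore-former described as a p53 target, fell slightly. It had 40.7, 42.4, 45.6 and 49.3 CPM in control libraries and 36.7, 39.6, 40.7 and 43.0 CPM in Klf4-transfected libraries. The groups overlapped when pooled and were separate within each batch. The log2 fold change was -0.15 (SE 0.04, edgeR adjusted p 0.00556), with -0.12 and -0.18 in batches 1 and 2, and the call was lost without the batch term (adjusted p 0.127). Bax shares 12.2% of its exonic length with Gm45808.

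The other pore-forming genes went the other way. Bak1, the partner of Bax at mitochondria, rose, with 19.9 ± 1.62 CPM in control and 24.2 ± 0.999 CPM with the Klf4 plasmid (SD, n = 4; log2 fold change 0.28 with an SE of 0.06, adjusted p 0.000425 in edgeR), although 18.2% of its exonic length overlaps Ggnbp1. Bok, a more distant relative, had 6.75, 6.14, 4.18 and 4.04 CPM in the controls against 8.86, 8.50, 7.05 and 9.27 CPM after Klf4 transfection (log2 fold change 0.70 with an SE of 0.11, adjusted p 2.08e-05 in edgeR). Controls of Bok were higher in batch 1 than in batch 2, and within batches 1 and 2 it rose by 0.43 and 0.99 on the log2 scale. The difference of 0.56 between batches did not pass the interaction test (edgeR unadjusted p 0.00397, adjusted p 0.174). All 3 effectors tested passed the threshold, 2 higher and 1 lower, against 36.6% of all genes tested, 21.1% higher and 15.5% lower.

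Of the 4 pro-survival genes tested (Bcl2, Bcl2l1, Bcl2l2, Mcl1), 1 passed the threshold, Bcl2, against 36.6% of all genes tested. Bcl2 (ENSMUSG00000057329, chromosome 1, 106538178 to 106714274, minus strand) had 32.5, 35.7, 35.6 and 35.7 CPM in control libraries and 30.3, 31.0, 31.1 and 28.7 CPM in Klf4-transfected libraries. The groups did not overlap, and control replicate 1 was the control nearest to the Klf4-transfected libraries. The mean was 86.9% of control (log2 fold change -0.20 with an SE of 0.05, adjusted p 0.00111 in edgeR), with -0.15 and -0.25 in batches 1 and 2. Bcl2 shares 6.1% of its exonic length with an antisense gene, D630008O14Rik.

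Bcl2l1 (ENSMUSG00000007659, chromosome 2, 152780668 to 152831728, minus strand) had 42.3, 42.4, 46.1 and 45.1 CPM in control libraries and 42.8, 43.4, 46.4 and 46.4 CPM in Klf4-transfected libraries. Its log2 fold change was 0.03 (SE 0.04, edgeR adjusted p 0.638), smaller than the offset of 0.11 between batches. Mcl1 (ENSMUSG00000038612, chromosome 3, 95658788 to 95663176, plus strand), which encodes a short-lived pro-survival protein, had 145.1, 141.7, 158.4 and 149.1 CPM in control libraries and 151.9, 152.3, 156.8 and 164.6 CPM in Klf4-transfected libraries. The groups overlapped, and the log2 fold change of 0.07 (SE 0.03) narrowly missed the threshold (edgeR adjusted p 0.053). Mcl1 passed it under 3 alternatives, with an adjusted p of 0.019 when the scaling was taken from abundant genes, 0.0459 in limma-voom and 0.0245 with the filter at 1 CPM. The remaining pro-survival genes Bcl2a1a, Bcl2a1b, Bcl2a1d and Bcl2l10 had at most 6 counts in any library, and the Bcl2a1 copies are similar enough to share reads.

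**Figure D2:**
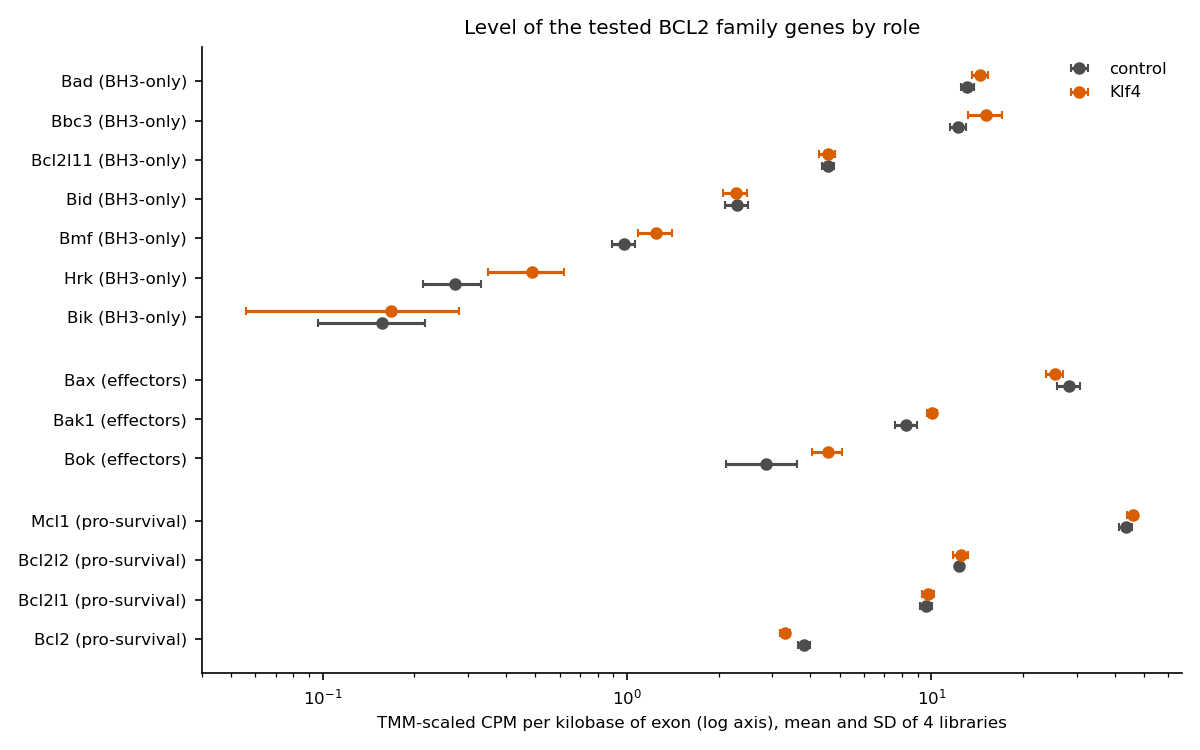
Level of the 14 tested BCL2 family genes grouped by role, in TMM-scaled CPM per kilobase of exon on a log axis, with grey for control and orange for Klf4-transfected libraries and bars for the SD of 4 libraries. Mcl1 and Bax are the highest in both groups, Bcl2 is the lowest of the pro-survival genes, and the control and Klf4-transfected means lie close together beside the range of levels between genes.

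Levels were compared between genes per kilobase of annotated exon, merged over all annotated transcripts of a gene. This length can exceed that of the transcript expressed, by an amount that differs between genes, so the order holds on this scale only. In control libraries the order was Mcl1 (43.5 ± 2.12 CPM per kilobase), Trp53 (35.8 ± 3.96), Mdm2 (31.9 ± 0.696), Bax (28.3 ± 2.41), Bbc3 (12.2 ± 0.727), Bcl2l1 (9.59 ± 0.422), Perp (7.96 ± 0.251), Bcl2 (3.81 ± 0.174), Trp73 (0.126 ± 0.0182) and Pmaip1 (SD, n = 4). Trp53 and Mdm2 differed by less than the SD of Trp53, and Mdm2 and Bax by more than either SD. In Klf4-transfected libraries Perp moved from the 7th to the 2nd place at 36.0 ± 5.82 CPM per kilobase (SD, n = 4), within its spread of Trp53 at 30.7 ± 2.74, and the order of the others was as in control.

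Genes widely described as p53 targets were taken as a list of 41, of which 39 were tested. Of these, 25 changed, 11 higher and 14 lower, against 36.6% of all genes tested, 21.1% higher and 15.5% lower. The median log2 fold change was -0.06, against -0.01 over all genes tested. The highest were Perp, Gdf15, Plk2 and Tnfrsf10b. Gdf15, a stress-induced secreted factor, had 0.361, 0.534, 0.243 and 0.414 CPM in the controls against 0.986, 1.37, 2.17 and 2.27 CPM after Klf4 transfection (log2 fold change 2.08 with an SE of 0.27, adjusted p 1.7e-06 in edgeR). The kinase gene Plk2 had 0.538 ± 0.0713 CPM in control and 1.69 ± 0.253 CPM with the Klf4 plasmid (SD, n = 4; 1.65, adjusted p 6.86e-07 in edgeR). The death receptor gene Tnfrsf10b had 2.26 ± 0.34 CPM in control and 4.81 ± 0.899 CPM with the Klf4 plasmid (SD, n = 4; log2 fold change 1.08, edgeR adjusted p 9.02e-08). These 3 genes were low, with at most 133 counts in any control library.

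Cdkn1a, the p21 gene for a cell cycle inhibitor, was both abundant and higher: 157.0, 146.4, 156.9 and 164.9 CPM in control libraries and 206.9, 198.4, 239.9 and 245.5 CPM in Klf4-transfected libraries (log2 fold change 0.51 with an SE of 0.04, adjusted p 6.44e-11 in edgeR). The lowest of the list were Trp53inp1, a stress-induced p53 cofactor (59.0 ± 2.16 to 46.2 ± 4.68 CPM, log2 fold change -0.36), the cyclin gene Ccng1 (101.7 ± 5.62 to 83.3 ± 6.25 CPM, -0.29), the repair endonuclease gene Ercc5 (48.2 ± 1.03 to 40.9 ± 1.53 CPM, -0.23; SD, n = 4) and Mdm2. Their edgeR adjusted p-values were 8.07e-07 for Trp53inp1, 3.29e-07 for Ccng1 and 4.48e-05 for Ercc5. The list therefore held genes that rose and genes that fell. Of its 39 tested genes, 11 had all Klf4-transfected libraries above control, 6 had them all below, and 22 overlapped. Among all genes tested 26.1% did not overlap, 17.2% above and 8.95% below. The groups did not overlap for Cdkn1a, Gdf15, Plk2, Tnfrsf10b, Trp53inp1, Ccng1 and Ercc5. Apart from Cdkn1a, these were named because they were the highest or lowest called, which favours separation.

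**Figure D3:**
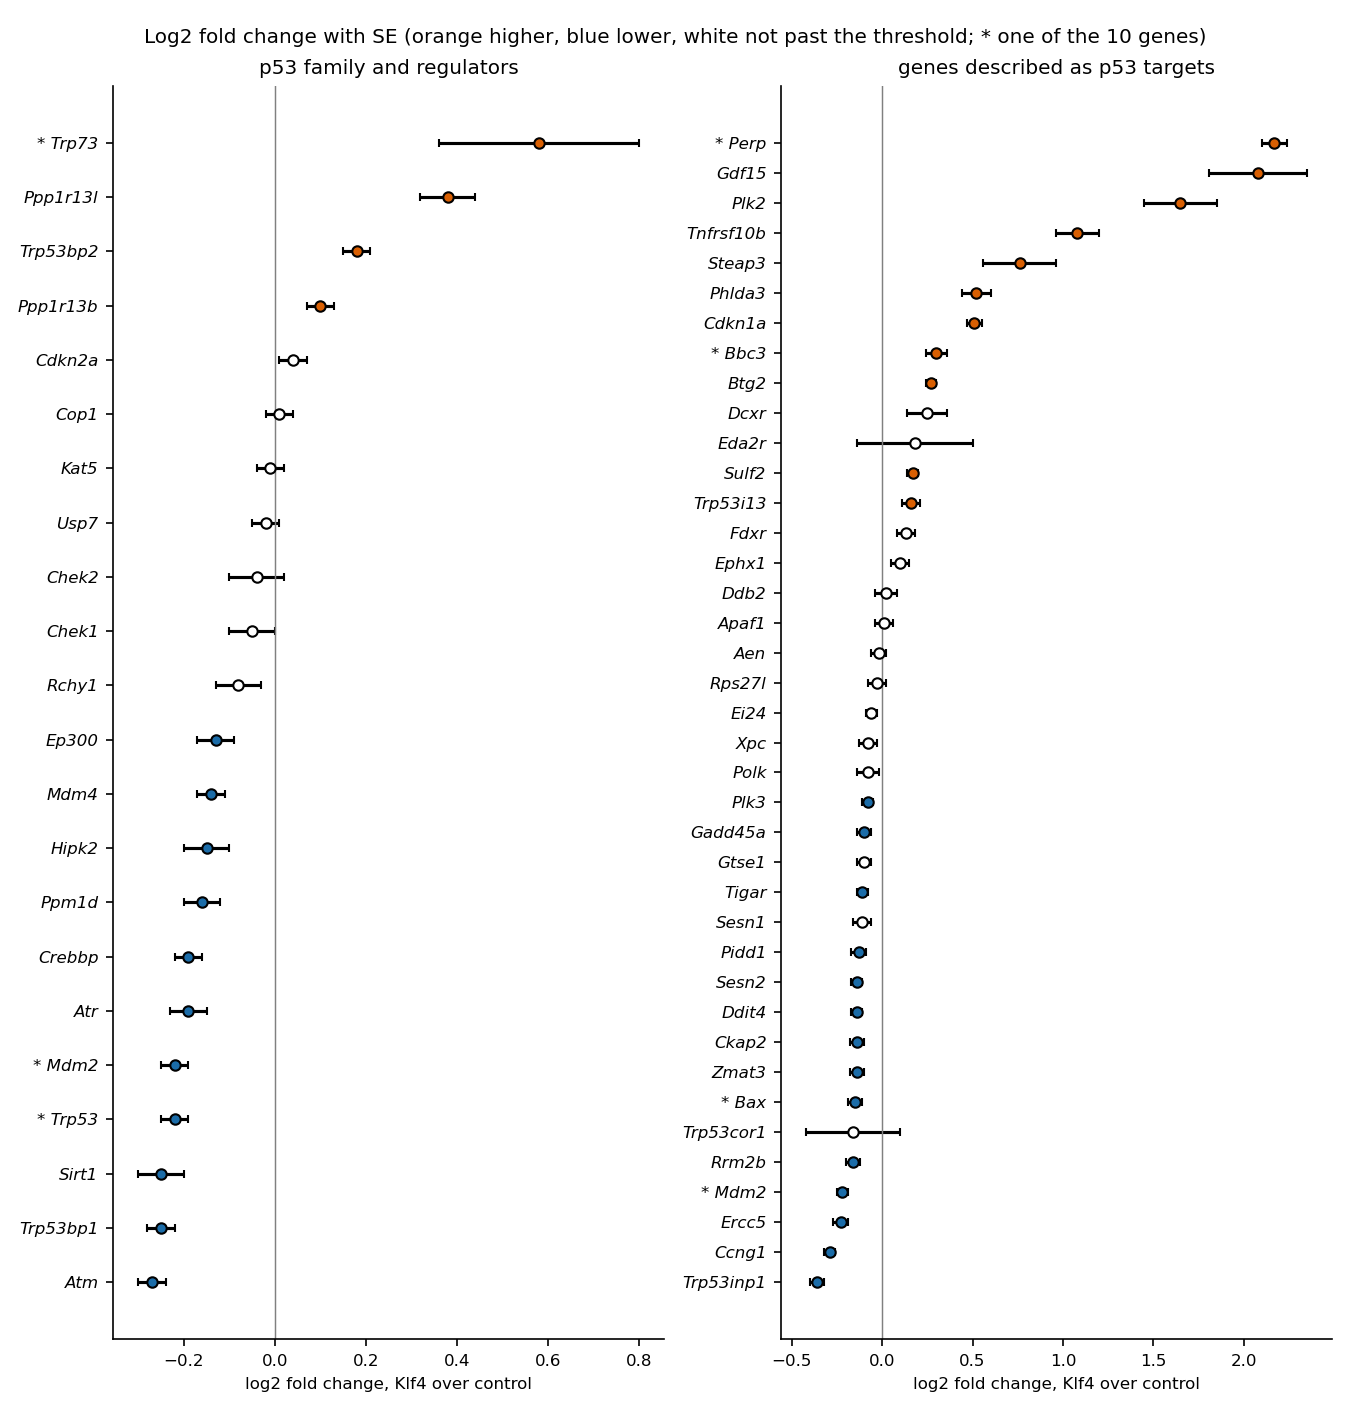
Log2 fold change of Klf4-transfected over control libraries (horizontal axes, which differ in range) with its SE for the 22 tested p53 family genes and regulators and the 39 tested genes described as p53 targets. Orange marks genes past the threshold and higher, blue those lower, white those not past it, and an asterisk the members of the 10; in the target list 11 are orange and 14 blue, and the lowest value is -0.36.

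Downstream of the mitochondria, 20 genes of the apoptosome, the caspases and their inhibitors were tested, and 8 changed, 3 higher and 5 lower, a share near that of all genes (36.6%, 21.1% higher and 15.5% lower). The median log2 fold change was -0.03. Casp8, the initiator behind death receptors, and Diablo, an inhibitor of caspase inhibitors, both had a log2 fold change of 0.24 (edgeR adjusted p 0.011 and 0.0319). Lower were Dffb, the nuclease of apoptotic DNA cleavage (57.9 ± 1.78 to 49.5 ± 5.38 CPM, SD, n = 4; -0.23, edgeR adjusted p 0.000428), and Casp2, a caspase gene linked to p53 through the PIDDosome (44.9 ± 1.28 to 38.5 ± 0.611 CPM, SD, n = 4; -0.22, edgeR adjusted p 5.65e-05). Cflar, a decoy of Casp8, and Aifm1, a mitochondrial flavoprotein gene, were also lower (log2 fold change -0.14 and -0.11, edgeR adjusted p 0.0237 and 0.0106). Without the batch term 3 of the 20 passed, against 22.5% of all genes tested. Without Klf4-transfected replicate 4, 5 did, and leaving out any 1 library gave 5889 to 7074 calls among all genes. Calls of single genes were lost without control replicate 3 or Klf4-transfected replicate 3 for Casp8 (adjusted p 0.0519 and 0.0881), without control replicate 3 or Klf4-transfected replicate 4 for Cflar (0.0656 and 0.0933), and without control replicate 1, 3 or 4 or Klf4-transfected replicate 2 or 4 for Diablo (0.0539 to 0.157). Diablo was also not called by the DESeq2 Wald test (adjusted p 0.055), and 21.5% of its exonic length overlaps another gene.

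Fitted within batch 1 alone (2 libraries against 2), 4 of the 9 genes changed, 2 higher and 2 lower, against 24.2% of all genes tested, 16.1% higher and 8.12% lower. Within batch 2, 6 changed, 2 higher and 4 lower, against 30.8%, 19.1% higher and 11.7% lower. In 8 of the 9 genes the libraries of the 2 groups separated in the same direction within both batches. With 2 libraries against 2 this is a weak criterion, since the 8 include Bcl2l1 (log2 fold change 0.03, not called). The share of all genes that met it was not computed. With the batch term left out, Trp53 and Bax were lost and 5 of the 9 remained, 3 higher and 2 lower, against 22.5% of all genes, 16.2% higher and 6.35% lower. With the replicate number as a block, 6 changed, 2 higher and 4 lower, against 34.4%, 20.4% higher and 14.0% lower. The offset between batches was therefore present for some of the 10 genes, and the direction of the plasmid difference was the same in each batch for all 9 that were tested.

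**Figure D4:**
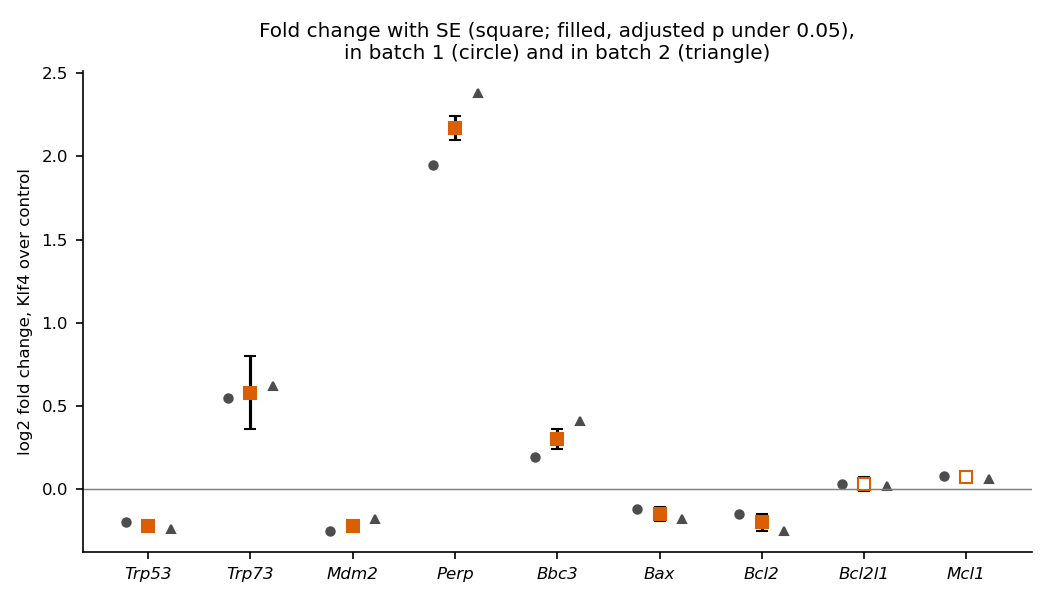
Log2 fold change of Klf4-transfected over control libraries (vertical axis) for the 9 tested genes. Squares give the fit over both batches with its SE, filled where the adjusted p was under 0.05, and circles and triangles give the fits within batch 1 and batch 2; Perp is at 2.17 and no other gene exceeds 0.58 in the fit over both batches.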

How the data were processed

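The deposited values are whole-number read counts per gene, 1 column per library, for which no normalisation or pooling by the authors is recorded. The table's name records trimming with cutadapt, and the submitters' processing notes name FastQC, STAR, featureCounts and edgeR and the mm10 build. Versions, annotation and strand setting are not given in the sources used here, so reads of overlapping genes cannot be separated. All 55536 pairs of gene identifier and symbol matched GENCODE M21 (GRCm38), the source of coordinates and exonic lengths.

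The counts were analysed in edgeR 4.0.16 (R 4.3.3): filterByExpr with a minimum count of 10 kept 18266 genes, TMM factors scaled them, and glmQLFit and glmQLFTest fitted batch and plasmid, with Benjamini-Hochberg adjustment over all tested genes and calls at an adjusted p under 0.05. The SE is the log2 fold change divided by the square root of F. Fits within a batch (2 against 2) kept the filter and factors of all libraries. The procedure was tested on simulated data.

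The 10 genes and the gene lists were chosen with earlier results of these data known. Named list genes were, per list, up to 4 highest and 4 lowest called genes that averaged 0 or more in log2 CPM, with Cdkn1a, Trp63, Mdm4, Bak1 and Bcl2l11 named in any case. Of the list symbols, Tp53rk had no match. The values of some genes are not reported here.

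All 8 libraries entered as separate replicates, since pairs within a group exceeded sampling noise (chi-square per degree of freedom 4.25 to 5.77 in the same batch and 17.6 to 22.6 across batches). Deviations from group means correlated at 0.46 to 0.61 between same-numbered libraries over 10482 genes, and at -0.04 to 0.08 once batch means were removed, so the numbers, which come from the sample titles, paired libraries through batch. Alternatives were no batch term, the replicate block, DESeq2 size factors, factors from abundant genes (6 or more in log2 CPM), DESeq2 1.42.0, limma-voom (limma 3.58.1), other filters and thresholds, and each library left out.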

Additional observations from a re-analysis of the deposited data

Results flagged for a closer look

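A library far from the other 3 of its group was looked for in 88 groups of 4 values and found in 6, where chance gives about 4.4. Control replicate 1 had 32.5 CPM of Bcl2, below the 35.6 to 35.7 CPM of the other controls. Without it the log2 fold change of Bcl2 was -0.26. Klf4-transfected replicate 4 had 40.4 CPM of Bad, above the 35.4 to 36.2 CPM of the others, and control replicate 2 had 7.04 CPM of Diablo, above 6.25 to 6.38 CPM. Control replicate 3 had 0 CPM of Pmaip1, where the other controls had 1 count each, and 0.0203 CPM of Dsg3, which is 1 count where the others had 0. Both lie under the floor of 3 counts. In Klf4-transfected replicate 2 the counts summed to 45417853, less than the 51891997 to 52731176 of the other Klf4-transfected libraries.

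The effect of the plasmid differed between the batches for Perp by 0.42 on the log2 scale (batch 2 against batch 1, edgeR interaction test, adjusted p 0.0245) and for Klf4 by 0.37 (adjusted p 0.0057), among 41 named genes tested. It was not particular to these genes. Outside the 41, the desmosomal gene Dsp differed by 0.78 (adjusted p 0.00116) and the β-cell marker Mafa by -0.25 (adjusted p 0.00817) in the same test. All 4 Klf4-transfected libraries were above all controls for Perp in either batch.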

How the results depend on the processing

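Every one of the 9 tested members kept the sign of its log2 fold change under the alternatives that were run. Perp (2.10 to 2.24), Mdm2 (-0.25 to -0.20), Bbc3 (0.21 to 0.35) and Bcl2 (-0.26 to -0.18) also stayed past the threshold in all 16, and Trp53 and Bax in all but the fit without a batch term. Of 654 values of single named genes, 619 kept their side of the threshold, 32 lost the call and 3, all of Mcl1, gained it. With a log2 fold change of at least 0.5 also required, 2317 genes changed in all. Of the lists, 2 members, 1 p53 regulator, 7 p53 targets, 0 pro-survival genes, 1 effector, 1 BH3-only gene and 0 caspase genes then remained. Without the batch term 4116 genes and 3 caspase genes changed, and at an adjusted p under 0.01, 3 caspase genes. The pro-survival count was 2, with Mcl1 higher, under factors from abundant genes, in limma-voom and with the filter at 1 CPM. With 1 library left out, 5889 to 7074 of all genes changed. The caspase count was then 5 to 8, the lowest without Klf4-transfected replicate 4, and that of the 7 divergent BCL2 relatives was 0 to 1 (Bnip3 without control replicate 2, Bcl2l13 without Klf4-transfected replicate 3, both lower). With the replicate block 6284 genes changed against 6684, 6261 of them shared, and among the members it ended only the call of Trp73 (adjusted p 0.0579). The interaction test called 140 genes in edgeR and 129 by the DESeq2 Wald test. The cause of these differences was not tested, except that fewer samples or a stricter threshold leave fewer calls by construction. Depth limits Pmaip1 and Trp63, whose counts were at most 5 and 0.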

Other observations

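The batches differed in the level of several members apart from the plasmid. In the batch term of the fit over all libraries, 5 of the 9 tested members were higher in batch 2 and none lower, against 13.4% higher and 11.6% lower among all genes tested (edgeR, adjusted p under 0.05). The log2 difference of batch 2 over batch 1 was 0.25 for Trp53 (adjusted p 1.87e-06), 0.21 for Perp (0.0238), 0.16 for Bax (0.00594), 0.11 for Bcl2l1 (0.0324) and 0.09 for Mcl1 (0.0277). For Trp53 this offset was as large in size as the plasmid effect of -0.22, and Mdm2 had none beyond its error (-0.01, adjusted p 0.902). Among the further genes Cflar fell by 0.25 and Casp8 by 0.29 between the batches (adjusted p 0.000355 and 0.00528).

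The divergent BCL2 relatives (Bcl2l12, Bcl2l13, Bcl2l14, Bcl2l15, Bnip3, Bnip3l and Becn1) gave no call in edgeR, DESeq2 or limma-voom. At an unadjusted p under 0.05, 1 of the 7 passed, Bcl2l13 (log2 fold change -0.07, edgeR adjusted p 0.092). The mitophagy receptor genes Bnip3 and Bnip3l and the autophagy gene Becn1 each had a log2 fold change of 0.01. For Bnip3 this joins 0.13 in batch 1 and -0.11 in batch 2 (edgeR interaction, unadjusted p 0.0194, adjusted p 0.337), and without control replicate 2 Bnip3 was called lower.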
